A study of Homo sapiens with 44 samples.

Results

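The aminoacyl-tRNA synthetase genes and the genes of their scaffold proteins, 40 of the 23367 gene rows of the table, were followed in neuroblastoma cells in which MYCN was lowered. The 40 genes were taken by symbol from a list, with no cutoff on their values. Earlier results of these data were known when the list was chosen. Of these, 24 were counted as cytosolic and 16 as mitochondrial (symbols ending in 2, apart from TARSL2 and AIMP2). All 40 passed the filter on low counts and are among the 14534 genes tested.

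All cells were IMR5/75, which is a MYCN-amplified human neuroblastoma line, with a tetracycline-inducible hairpin RNA (shRNA) that targets MYCN. All 44 libraries came from cells that carried this cassette and had been arrested with thymidine for 18 h. They were collected 0, 3, 6, 8, 10, 12, 14, 16, 18, 20 and 22 h after washout, with tetracycline (Tet plus, shRNA on) or without it (Tet minus), with 2 libraries for each arm and time that the series' design calls biological replicates. Whether the line is a single clone is not given in the sources used here. Without a library of cells given tetracycline but no hairpin, or another hairpin, what the drug or the hairpin did by itself and what lowered MYCN did cannot be told apart.

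Gene counts per library, in units of 1000000 counts, ranged from 10.9 to 25.3 (median 20.1). MYCN was 17.3% lower in Tet plus at 0 to 14 h (-0.27 on the log2 scale, SE 0.046, adjusted p = 2.7e-05) and 16.5% lower at 16 to 22 h (-0.26, SE 0.061, adjusted p = 7.9e-04), although its arms overlapped (938 to 1213 CPM, counts per 1000000 scaled counts, in 14 Tet plus libraries and 969.7 to 1479 in 14 Tet minus libraries at 0 to 14 h). Markers of noradrenergic neuroblastoma such as HAND2 (244.6 to 620.1 CPM) and CHGA (185 to 659 CPM) were high in every library. DBH was lower (2.43 to 45.1 CPM, median 9.80), and TH was at 0 in 11 libraries and reached at most 0.213 CPM. Among 17 markers of other cells, COL1A1 (median 13.5 CPM) and LUM (median 14.3 CPM) were the highest, and SOX10, S100B, CD3E, PECAM1, KRT5 and COL1A2 had a median of 0. From 0 to 14 h, same-numbered libraries of both arms carry the same lane number. From 16 to 22 h the Tet plus libraries have another title form and other lane numbers than Tet minus. Those titles name no arm, and in replicate 2 they begin with another number than the hours used. Their arm and time were taken from the sample descriptions. Some repeat the index bases and lane number of an earlier library, so that equal lane numbers need not mean the same lane. Arm therefore cannot be told apart there from lane or from any other difference between these sets of libraries. The late Tet plus libraries held 0.0543% to 0.376% spike-in counts against 1.13% to 3.43% in Tet minus. The 2 periods are therefore given separately.

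Aminoacyl-tRNA synthetases join each amino acid to its transfer RNA (tRNA) and so supply the ribosome with charged tRNA. The cytosolic and the mitochondrial enzymes are encoded by separate nuclear genes for most amino acids, while GARS and KARS encode the enzyme of both compartments. In animal cells several cytosolic enzymes are held in a multisynthetase complex by the scaffold proteins AIMP1, AIMP2 and EEF1E1. Proteins of the MYC family bind the E-box CACGTG, and ATF4, the transcription factor of the amino acid shortage response, raises many cytosolic synthetase genes through the C/EBP-ATF response element (CARE).

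Promoters of 4 members on which the results turn are shown first. MARS2 and EARS2 had the lowest fold changes at 0 to 14 h, IARS was the most abundant complex enzyme, and AARS differed most between the periods. Each is the 250 bases before the start site, 5′ to 3′ on the gene's strand, from RefSeq on GRCh38.p14, in lower case with CACGTG and CARE matches (TGATGNAA, either strand) in capitals.

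MARS2, chr2:197705119-197705368, plus strand: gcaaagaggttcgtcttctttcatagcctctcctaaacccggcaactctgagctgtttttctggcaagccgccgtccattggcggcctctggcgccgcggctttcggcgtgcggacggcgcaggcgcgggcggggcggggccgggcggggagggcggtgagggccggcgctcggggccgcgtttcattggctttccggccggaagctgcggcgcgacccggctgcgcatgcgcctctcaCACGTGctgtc
EARS2, chr16:23557351-23557600, minus strand: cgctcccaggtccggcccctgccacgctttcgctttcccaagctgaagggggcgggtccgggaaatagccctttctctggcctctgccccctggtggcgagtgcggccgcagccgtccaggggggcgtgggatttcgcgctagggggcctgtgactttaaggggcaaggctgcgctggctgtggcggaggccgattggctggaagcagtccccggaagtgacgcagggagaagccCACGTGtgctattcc
IARS, chr9:92293698-92293947, minus strand: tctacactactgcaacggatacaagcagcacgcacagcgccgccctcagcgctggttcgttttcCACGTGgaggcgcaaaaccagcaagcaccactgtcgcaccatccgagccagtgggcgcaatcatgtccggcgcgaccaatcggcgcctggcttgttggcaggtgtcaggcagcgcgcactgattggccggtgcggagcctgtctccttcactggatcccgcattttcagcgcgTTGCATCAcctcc
AARS, chr16:70289507-70289756, minus strand: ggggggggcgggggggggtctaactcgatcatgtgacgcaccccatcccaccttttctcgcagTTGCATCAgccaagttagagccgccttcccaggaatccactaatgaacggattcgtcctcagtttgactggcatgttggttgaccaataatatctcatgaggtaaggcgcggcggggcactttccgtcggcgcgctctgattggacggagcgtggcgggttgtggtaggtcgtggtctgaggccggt

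In these windows the E-box of MARS2 begins 11 bases before the start, that of EARS2 15 bases before it and that of IARS 186 bases before it. The CARE match of IARS begins 13 bases and that of AARS 187 bases before the start, both on the reverse strand. CACGTG reads the same on both strands. IARS was the 1 member with both motifs, and there they do not overlap. The windows searched were longer, from 250 bases before to 50 bases after each start. RefSeq windows were matched for 33 of the 40 members (45 windows), and DARS, LARS, TARSL2, VARS, YARS, AARS2 and VARS2 were not matched.

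At 0 to 14 h, 25 of the 40 members fell in Tet plus and 0 rose, where 21.3% of all genes tested fell and 20.1% rose (edgeR's quasi-likelihood test, adjusted p under 0.05). At unadjusted p under 0.05 there were 27 members (share of all genes not reported here), and the DESeq2 test called the same 25 members and also no higher one. Neither test paired the replicates of the 2 arms. With replicate number as a block in edgeR, DARS, EPRS and IARS2 passed as well and no call was lost. The genes past the threshold were then 7582 in all, in place of 6019. Without the block, the cytosolic and the mitochondrial genes fell in like proportions, 16 of 24 and 9 of 16. Their median log2 fold changes were -0.21 and -0.17, beside 0.01 over all genes tested. The fitted mean was below Tet minus at all 7 times for 24 of the 40 members (14 cytosolic and 10 mitochondrial), against 18.1% of all genes. Scaling to the spike-ins in place of gene counts left no member past the threshold (0 of 40, and 0 at unadjusted p under 0.05). With it the all-gene median was 0.13 in place of 0.01, 48 genes in all were called, and the medians of the cytosolic and mitochondrial members became -0.13 and -0.054.

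**Figure D1:**
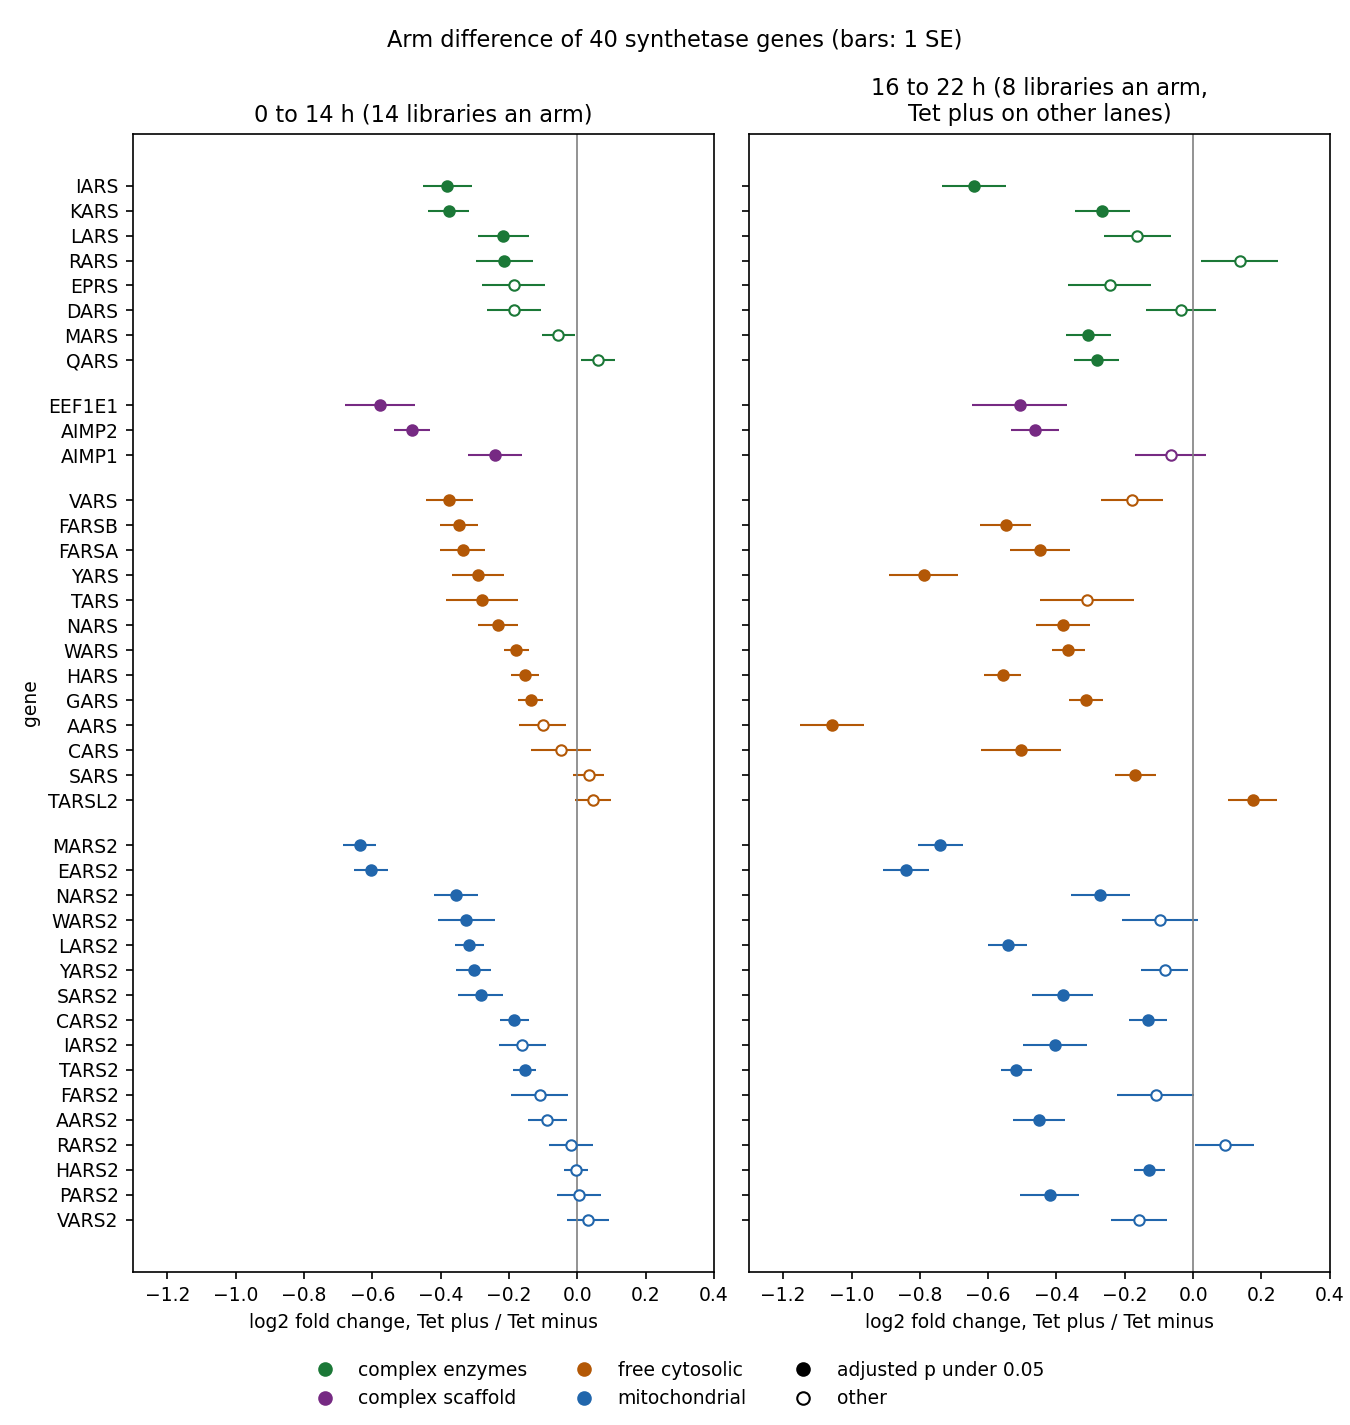
Log2 fold change of Tet plus over Tet minus for each of the 40 genes (horizontal axis) at 0 to 14 h (left, 14 libraries an arm) and 16 to 22 h (right, 8 libraries an arm), with bars of 1 SE, and filled points where the edgeR adjusted p was under 0.05. At 0 to 14 h the 25 filled points all lie left of 0, with MARS2 (-0.64) and EARS2 (-0.60) farthest; at 16 to 22 h AARS (-1.06) lies farthest left and TARSL2 (0.17) is the filled point to the right.

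Among the 8 enzymes of the multisynthetase complex, IARS, KARS, LARS and RARS fell at 0 to 14 h. IARS, which charges isoleucine tRNA, read 435 to 615 CPM (median 497) in the 14 Tet plus libraries and 547 to 850 CPM (median 675) in the 14 Tet minus libraries. The ranges overlapped, and at 5 of 7 times the pair of Tet plus libraries was under the pair of Tet minus libraries (fold change -0.38 in log2, SE 0.071, adjusted p = 1.0e-04). KARS, the lysine enzyme of both compartments, read 76.6 to 128 CPM (median 108) in Tet plus and 99.96 to 166 CPM (median 136) in Tet minus. It too was separated at 5 of 7 times (-0.38, SE 0.060, adjusted p = 1.5e-05).

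LARS, the leucine enzyme that also senses leucine for the growth kinase mTORC1, read 256 to 376 CPM (median 289) in Tet plus and 274 to 457 CPM (median 328) in Tet minus. Its arms were separated at 1 of 7 times only (-0.22, SE 0.074, adjusted p = 0.0206), and the call was lost in 6 of 28 fits that each left out 1 library (highest adjusted p = 0.0629, without the Tet minus 6 h replicate 2). With the replicate block its adjusted p was 5.0e-05. RARS, the arginine enzyme, was close to the threshold (-0.21, SE 0.084, adjusted p = 0.0445), and its call was lost in 17 of 28 such fits, with DESeq2's size factors (adjusted p = 0.0545) and when the 28 libraries were fitted alone (adjusted p = 0.0816). With the replicate block it was 9.8e-04.

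DARS (-0.18, adjusted p = 0.0595) and EPRS (-0.19, adjusted p = 0.111), the aspartate enzyme and the enzyme for glutamate and proline, did not pass the threshold. With replicate number as a block they did, at nearly the same size (DARS -0.18, adjusted p = 5.0e-04; EPRS -0.18, adjusted p = 3.4e-04). MARS (-0.06, adjusted p = 0.388) and QARS (0.06, adjusted p = 0.347), which charge methionine and glutamine tRNA, did not pass (SE 0.049 each). QARS read 101 to 133 CPM (median 116) in Tet plus and 97.0 to 149 CPM (median 108) in Tet minus, and was the complex enzyme with a positive sign.

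For most of these 8 genes replicate 2 was the higher one. It lay above replicate 1 by a median of 0.29 (log2) in Tet minus cells and 0.19 in Tet plus cells, in all 8 genes in Tet minus and in all but MARS (-0.10) in Tet plus, while over all genes tested the median offset was 0.00 in both arms. For all 24 cytosolic members it was 0.19 in Tet minus and 0.10 in Tet plus, and for the 16 mitochondrial members 0.11 and 0.10. TARS had the largest offset, 0.42 in Tet minus, with replicate 2 above replicate 1 at 11 of 11 times. The source of the offset was not tested.

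The 3 scaffold genes fell together at 0 to 14 h. AIMP2, the core scaffold of the complex, read 46.1 to 87.1 CPM (median 69.9) in Tet plus and 68.4 to 115 CPM (median 99.7) in Tet minus. The ranges overlapped over the whole period, but both Tet plus libraries were below both Tet minus libraries at all 7 times (-0.48, SE 0.053, adjusted p = 5.4e-08). EEF1E1, which anchors MARS to the complex, was the least abundant member, at 2.63 to 4.59 CPM (median 3.12) in Tet plus and 2.67 to 8.39 CPM (median 4.95) in Tet minus. It was separated at 6 of 7 times, with 3 h as the exception (-0.58, SE 0.103, adjusted p = 5.8e-05). AIMP1, which also gives rise to a secreted cytokine, read 35.8 to 64.3 CPM (median 44.6) in Tet plus and 37.5 to 89.0 CPM (median 52.8) in Tet minus. This was the smallest change of the scaffold genes (-0.24, SE 0.079, adjusted p = 0.0154), and leaving out the Tet minus 6 h replicate 2 took it to adjusted p = 0.0502.

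Of the 13 free cytosolic enzymes, VARS, FARSA, FARSB, YARS, TARS, NARS, WARS, HARS and GARS fell at 0 to 14 h. FARSA and FARSB encode the α and β subunits of the phenylalanine enzyme and fell by like amounts, 20.7% and 21.3%. FARSB read 57.1 to 74.7 CPM (median 64.0) in Tet plus and 72.4 to 110 CPM (median 81.1) in Tet minus. Its ranges overlapped by the edge, and at all 7 times both Tet plus libraries were below both Tet minus libraries (-0.35, SE 0.056, adjusted p = 1.7e-05).

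FARSA read 92.3 to 158 CPM (median 133) in Tet plus and 131 to 195 CPM (median 163) in Tet minus (-0.34, SE 0.066, adjusted p = 1.9e-04). VARS, the valine enzyme, read 137 to 197 CPM (median 155) in Tet plus and 149.9 to 320 CPM (median 204) in Tet minus (-0.37, SE 0.069, adjusted p = 8.7e-05). Both overlapped between arms, and both were separated within most times (5 of 7 for FARSA, 6 of 7 for VARS). The remaining 6 that fell ranged from GARS (-0.14, adjusted p = 0.00384) to YARS (-0.29, adjusted p = 0.00284), the glycine and tyrosine enzymes. TARS, the threonine enzyme, had the highest adjusted p of them without the block (-0.28, SE 0.105, adjusted p = 0.0347; 1.0e-04 with the replicate block), and without the block lost its call in 14 of 28 fits that left out 1 library and with the 28 libraries fitted alone (adjusted p = 0.0716). AARS (-0.10, adjusted p = 0.257), CARS (-0.05, adjusted p = 0.702), SARS (0.03, adjusted p = 0.588) and the less studied threonine enzyme TARSL2 (0.05, adjusted p = 0.513) did not pass.

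The members with the lowest log2 fold changes at 0 to 14 h were both mitochondrial. MARS2, which charges the mitochondrial methionine tRNA used both to start and to extend proteins, read 15.4 to 25.8 CPM (median 22.7) in the 14 Tet plus libraries and 27.2 to 40.1 CPM (median 34.4) in the 14 Tet minus libraries. The arms did not overlap (-0.64, SE 0.050, adjusted p = 1.0e-10). MARS2 was the 1 member of 40 whose arms were apart over the whole period, which held for 1.09% of all genes.

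EARS2, the mitochondrial glutamate enzyme, which also loads glutamate on the glutamine tRNA for later amidation, read 50.9 to 74.8 CPM (median 59.0) in Tet plus and 71.5 to 107.5 CPM (median 95.5) in Tet minus. Only the edges of the ranges met: a Tet plus library at 10 h reached 74.8 CPM, above the Tet minus replicate 1 at 0 h (71.5 CPM) and at 3 h (74.5 CPM) (-0.60, SE 0.051, adjusted p = 4.3e-10). In both genes both Tet plus libraries were below both Tet minus libraries at every time, and both passed the threshold at each of the 11 times. At single times these calls were not stable: at 0 h 1 member was called with DESeq2's size factors, without the low-count filter or with the 28 libraries fitted alone, and leaving out 1 library left 0 to 1 members called at 0, 10 and 12 h. LARS2, the mitochondrial leucine enzyme, read 86.8 to 129.9 CPM (median 111) in Tet plus and 96.4 to 163 CPM (median 137) in Tet minus. It overlapped over the period and was separated at all 7 times (-0.32, SE 0.043, adjusted p = 1.6e-06). With FARSB and AIMP2, these made 5 of 40 members separated at all 7 times, against 4.12% of all genes.

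The other mitochondrial genes that fell at 0 to 14 h were NARS2 (-0.35), WARS2 (-0.33), YARS2 (-0.30), SARS2 (-0.28), CARS2 (-0.18) and TARS2 (-0.15), with adjusted p from 3.3e-05 for YARS2 to 0.00273 for WARS2. They charge asparagine, tryptophan, tyrosine, serine, cysteine and threonine tRNA. IARS2 (-0.16, adjusted p = 0.0667) passed with the replicate block (-0.16, adjusted p = 3.0e-04). AARS2 (-0.09), FARS2 (-0.11), RARS2 (-0.02), HARS2 (0.00), PARS2 (0.01) and VARS2 (0.03) did not pass, with adjusted p of 0.223 or more.

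**Figure D2:**
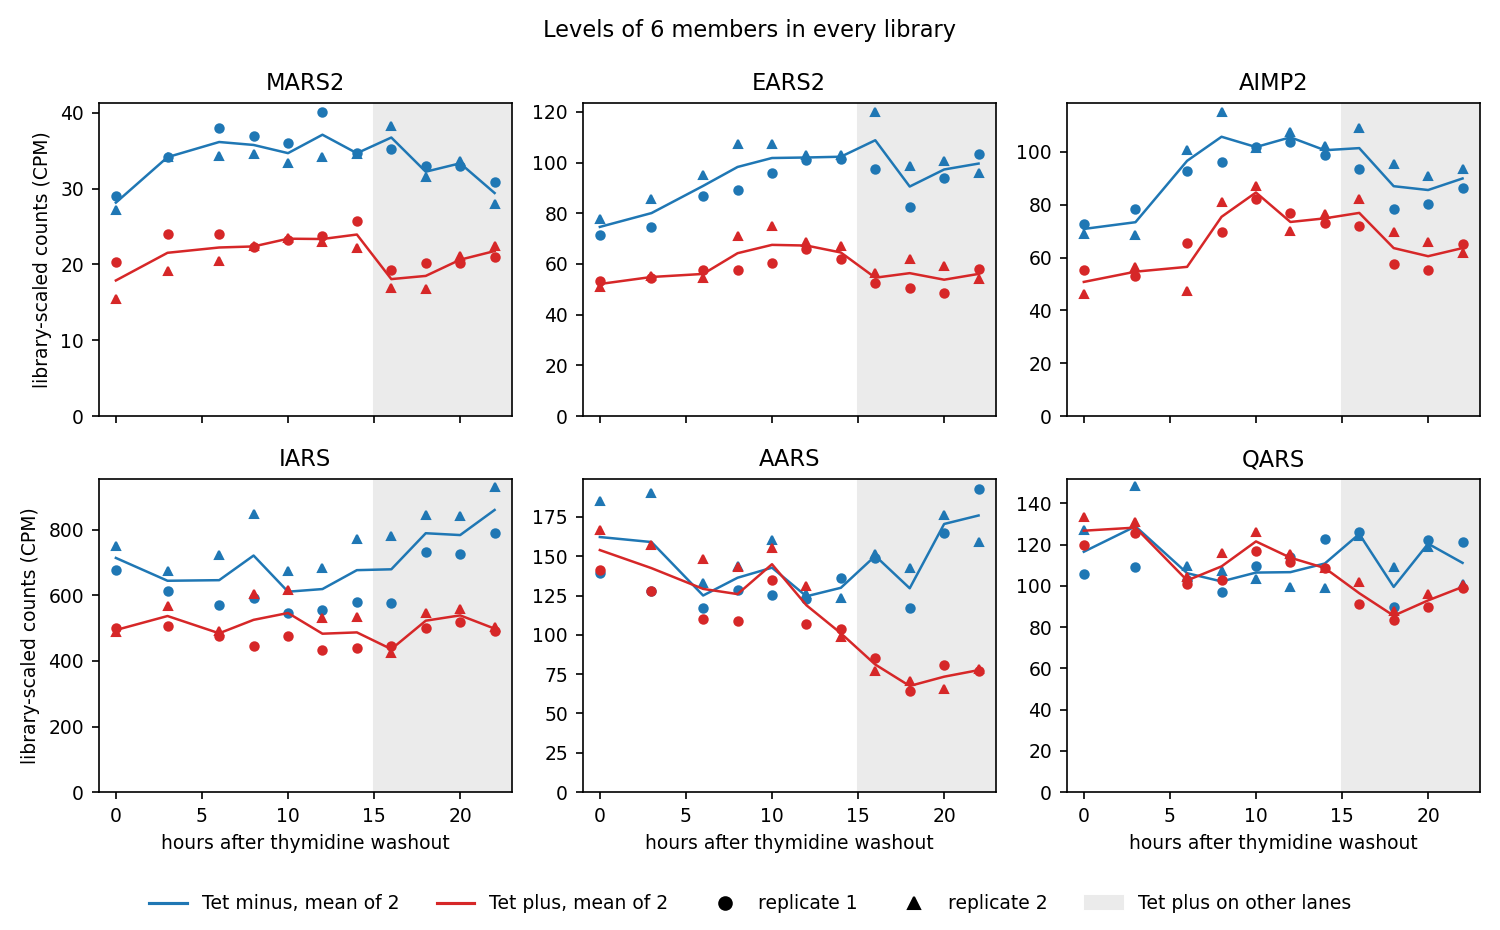
Library-scaled counts (CPM, vertical axis from 0) of MARS2, EARS2, AIMP2, IARS, AARS and QARS against hours after washout, with 1 point per library, lines through the mean of the 2 replicates of each arm, and grey where the Tet plus libraries have other lane numbers than Tet minus. MARS2 and EARS2 are apart at every time, AARS overlaps between arms to 12 h and lies at 64.1 to 85.2 CPM in Tet plus against 117 to 193 CPM in Tet minus from 16 h, and QARS arms overlap at 0 to 14 h.

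The enzymes of an amino acid often differed in whether they passed. A cytosolic and a mitochondrial member were set side by side for 15 amino acids. EPRS, which serves glutamate and proline, was paired with EARS2 only. Its proline pair with PARS2 (-0.19 and 0.01, neither past the threshold) is not among the 15. Both enzymes fell at 0 to 14 h for 5 of the 15 (leucine, asparagine, threonine, tryptophan, tyrosine). The cytosolic enzyme alone passed for 5 and the mitochondrial one alone for 4, and neither passed for alanine. The mitochondrial enzyme had the lower fold change in 8 of 15 pairs. The widest gaps were for methionine, with MARS at -0.06 and MARS2 at -0.64, for glutamate, with EPRS at -0.19 and EARS2 at -0.60, and, in the other direction, for valine, with VARS at -0.37 and VARS2 at 0.03. The difference within a pair was not tested.

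**Figure D3:**
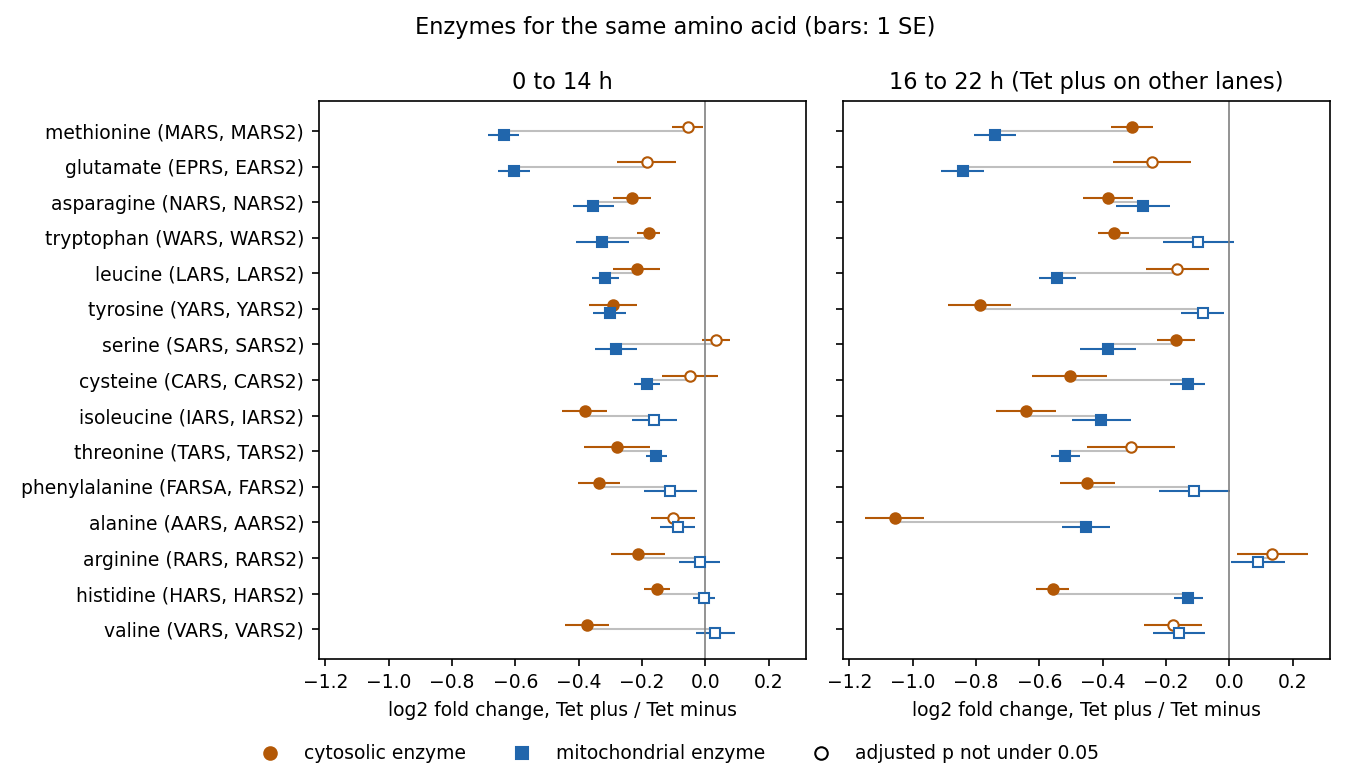
Log2 fold change of Tet plus over Tet minus (horizontal axis, bars of 1 SE) for the cytosolic (circles) and mitochondrial (squares) enzyme of each of 15 amino acids, at 0 to 14 h (left) and 16 to 22 h (right), filled where the adjusted p was under 0.05. Methionine and glutamate have the mitochondrial enzyme far to the left at 0 to 14 h (-0.64 and -0.60), valine has the cytosolic one (-0.37).

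HARS and HARS2, the cytosolic and mitochondrial histidine enzymes, lie head to head. Their RefSeq starts are 85 bases apart on opposite strands, and the windows share 184 bases. HARS read 131 to 166 CPM (median 154) in Tet plus and 139 to 191 CPM (median 172) in Tet minus at 0 to 14 h and fell (-0.15, SE 0.040, adjusted p = 0.00324). HARS2 read 111 to 137.5 CPM (median 128) and 116 to 142.5 CPM (median 129.9) in the same libraries, with a log2 fold change of 0.00 (SE 0.034). At 16 to 22 h HARS fell by 0.56 and HARS2 by 0.13 on the log2 scale. Exons of these genes overlap on opposite strands in GENCODE. How HTSeq treated strand is not given in the sources used here, so that part of the reads cannot be assigned with certainty. The same holds for MARS with DDIT3, WARS with WDR25, YARS with S100PBP, AIMP1 with TBCK, AIMP2 with EIF2AK1, AARS2 with TMEM151B, EARS2 with UBFD1 and SARS2 with MRPS12. A readthrough row that joins EEF1E1 to its neighbour had 0 counts in every library.

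Summed over the 24 cytosolic members, the level at 0 to 14 h was 3781 to 4765 CPM (median 4077) in Tet plus and 4236 to 5625 CPM (median 4914) in Tet minus. The 16 mitochondrial members summed to 962.5 to 1164 CPM (median 1036) and 1050 to 1329 CPM (median 1206). Both sums overlapped between arms. The ratio of the cytosolic to the mitochondrial sum had a median of 3.99 with the shRNA on (3.67 to 4.41) and of 4.07 with it off (3.57 to 4.45), so that the arms covered nearly the same range. In bulk libraries fewer cells with a transcript and less of it per cell cannot be told apart.

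Per kilobase of exon, SARS was the most abundant member (169 CPM per kb, mean of the 44 libraries), followed by IARS (126), EPRS (103) and NARS (100.2). The highest mitochondrial member on this scale was IARS2 (67.1 CPM per kb). EEF1E1 (3.00), WARS2 (3.79) and FARS2 (5.23 CPM per kb) were the lowest. MARS2 (9.13 CPM per kb) was far below MARS (78.5), and EARS2 (16.9) far below EPRS (103). Tests were not run between genes.

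Along the course from 0 to 14 h the arm difference did not change detectably. The joint test that the difference depends on time called 0 of the 40 members (0 at unadjusted p under 0.05, and 0 with DESeq2's likelihood ratio test), and 2 of all 14534 genes (0.0138%). At unadjusted p under 0.05 were 1.82% of all genes, fewer than that cutoff would give with no change in any gene. The test was thus conservative here and could miss a change. The smallest unadjusted p was 0.15 for EEF1E1 among cytosolic and 0.351 for YARS2 among mitochondrial members. The median over cytosolic members ran between -0.29 at 0 h and -0.11 at 3 h, and the median over mitochondrial members between -0.31 at 6 h and -0.13 at 0 h. With 2 libraries an arm at a time, single times called few members. The counts were 2, 3, 7, 2, 2, 3 and 3 at 0, 3, 6, 8, 10, 12 and 14 h, all lower, where 1.00%, 1.70%, 4.44%, 2.06%, 2.04%, 2.57% and 3.34% of all genes were called lower. EARS2 and MARS2 were called each time, joined by VARS at 3 h, by AIMP2, KARS, LARS2, WARS and YARS2 at 6 h, by AIMP2 at 12 h and by EEF1E1 at 14 h. Blocking on replicate gave 8, 14, 10, 4, 10 and 12 at 0, 6, 8, 10, 12 and 14 h. The shares of all genes with the block are not reported at single times. Over 0 to 14 h the block took the calls among all genes from 6019 to 7582.

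Within the Tet minus arm, where MYCN was left high, no member passed between times that share a lane. The edgeR test called 0 of 40 between 6 and 0 h (5 at unadjusted p under 0.05), 0 between 12 and 8 h (0 unadjusted) and 0 between 22 and 16 h (5 unadjusted), where 2.35%, 0.833% and 1.64% of all genes passed. With the DESeq2 test these counts were 0 as well, and with the replicate block 1 member was higher at 6 than at 0 h and 4 were higher at 22 than at 16 h. In Tet plus cells 0 of 40 passed between 6 and 0 h (6 unadjusted, against 2.50% of all genes called) and between 12 and 8 h (0 unadjusted, against 0.220%), by both tools, and with the replicate block 1 member was lower at 6 than at 0 h. The arm differences at 6 and 0 h, and at 12 and 8 h, also did not differ for any member (0 of 40 by both tools, with 1 and 0 at unadjusted p under 0.05), nor for any of the genes tested. All percentages in this paragraph are of calls at adjusted p under 0.05. The shares of all genes at unadjusted p or with the replicate block are not reported here.

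**Figure D4:**
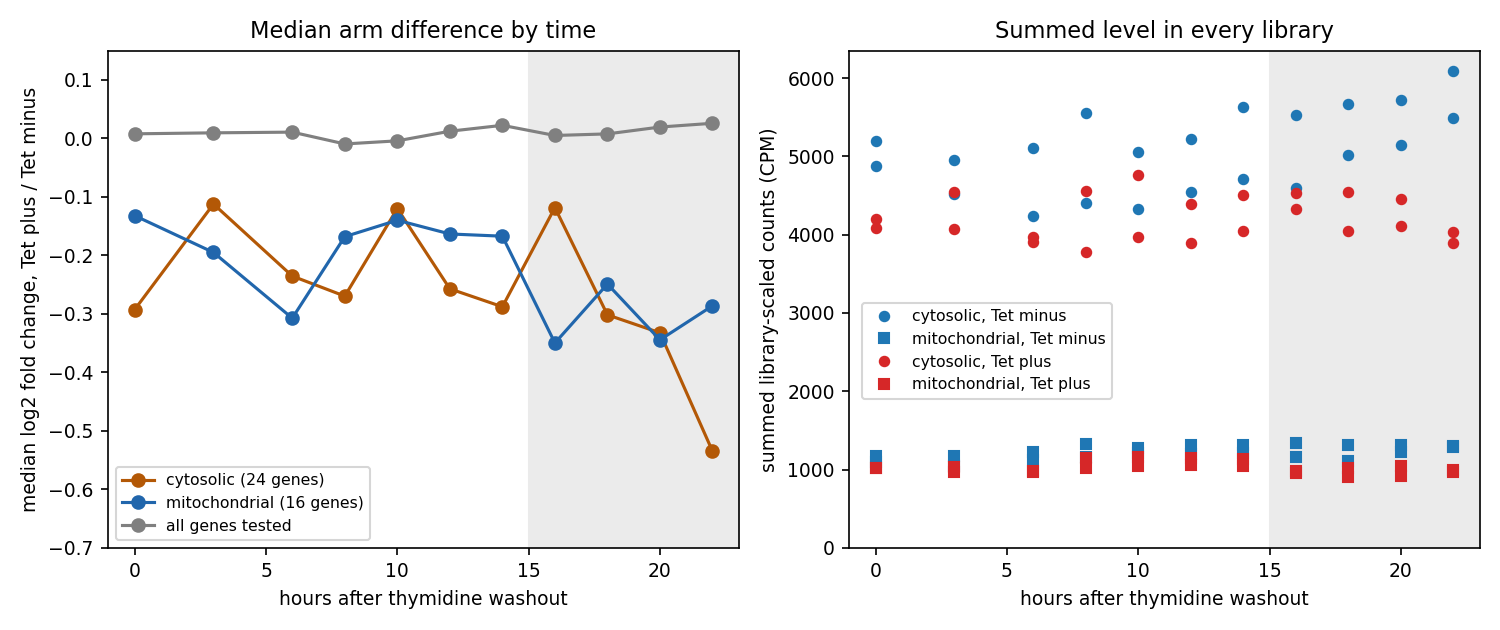
Left, median log2 fold change of Tet plus over Tet minus at each time for the 24 cytosolic members, the 16 mitochondrial members and all genes tested; right, the summed CPM of each set in every library, with grey where the Tet plus libraries have other lane numbers than Tet minus. Both members' medians stay below 0 at all 11 times while that of all genes stays within -0.01 and 0.03, and the lowest median is -0.53, that of the cytosolic members at 22 h.

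At 16 to 22 h, where arm and lane cannot be told apart, 27 of the 40 members fell and 1 rose in Tet plus, against 26.8% and 26.3% of all genes. Of the cytosolic members 16 fell and 1 rose, and of the mitochondrial members 11 fell. Medians were -0.31 and -0.33, beside 0.02 over all genes. Fewer counts in these Tet plus libraries (10.9 to 19.8 in units of 1000000) and their lower spike-in share move with the arm, and their part in the result was not tested. Scaled to the spike-ins, all 40 members were higher (0 lower), together with nearly all genes, whose median moved from 0.02 to 4.41; relative to that shift, no member's sign changed among those called.

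AARS, the alanine enzyme, stood farthest out. It read 64.1 to 85.2 CPM (median 76.98) in the 8 Tet plus libraries and 117 to 193 CPM (median 155) in the 8 Tet minus libraries, which did not overlap (-1.06, SE 0.094, adjusted p = 4.9e-10). At 0 to 14 h its arms had covered nearly the same range, 98.4 to 166 and 117 to 190 CPM. At 14 h, the last time with shared lanes, both Tet plus libraries were at 104 and 98.4 CPM and both Tet minus libraries at 136 and 124 CPM (-0.36, SE 0.186, adjusted p = 0.285).

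EARS2 (-0.84, SE 0.068), YARS (-0.79, SE 0.10), MARS2 (-0.74, SE 0.067), IARS (-0.64, SE 0.094) and HARS (-0.56, SE 0.054) followed, with adjusted p from 7.7e-11 for EARS2 to 2.4e-06 for IARS. In all of these the 8 Tet plus libraries lay below the 8 Tet minus libraries, as they did for AARS, FARSB, GARS, WARS, LARS2 and TARS2. That made 11 of 40 members, against 9.52% of all genes. TARSL2 was the member that rose (32.2 to 36.7 CPM, median 35.4, in Tet plus; 27.4 to 36.9 CPM, median 30.6, in Tet minus; 0.17, SE 0.071, adjusted p = 0.0409). Its arms overlapped, and the call ended without the low-count filter and in 10 of 16 fits that left out 1 library (highest adjusted p = 0.144, without the Tet minus 22 h replicate 1).

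Lower in both periods were 18 members, 11 cytosolic and 7 mitochondrial, against 15.6% of all genes. The 7 that fell at 0 to 14 h alone (5.67% of all genes) were LARS, RARS, TARS, VARS, AIMP1, WARS2 and YARS2. The 9 that fell at 16 to 22 h alone (11.2% of all genes) were AARS, CARS, MARS, QARS, SARS, AARS2, HARS2, IARS2 and PARS2. EPRS, LARS, TARS and VARS also passed at 16 to 22 h with the replicate block (-0.23, -0.16, -0.31 and -0.18, adjusted p from 4.4e-04 for EPRS to 0.0395 for VARS). CARS2 (-0.13, adjusted p = 0.0497) and HARS2 (-0.13, adjusted p = 0.0193) lost the call with DESeq2's size factors, with no low-count filter and with the 16 libraries fitted alone. Leaving out single libraries ended the call of CARS2 for 12, of HARS2 and SARS for 5 each, and of NARS2 for 1 of the 16 libraries.

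Whether the arm difference at 16 to 22 h differed from that at 0 to 14 h was tested directly. It was lower for 13 members and higher for 0, against 12.3% and 8.24% of all genes. An unadjusted p under 0.05 was found for 20 members, and the share of all genes at that cutoff is not reported here. The 13 were AARS, YARS, CARS, PARS2, HARS, AARS2, TARS2, QARS, MARS, EARS2, LARS2, WARS and GARS. AARS changed most (-0.96, SE 0.117, adjusted p = 9.9e-07), and GARS least (-0.18, SE 0.061, adjusted p = 0.0382). The count was 7 without the Tet minus 16 h replicate 2, 8 without the Tet plus 16 h replicate 2 or without the Tet minus 18 h replicate 2, and 8 without the low-count filter. With the replicate block 2 members, RARS (0.35, adjusted p = 0.00219) and YARS2 (0.22, adjusted p = 0.0228), had a higher difference. This comparison sets a period in which the arms share lane numbers against one in which they do not.

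Between 22 and 16 h the same-numbered Tet plus libraries share a lane number. There FARSB (-0.53), AIMP1 (-0.80) and EEF1E1 (-1.42) fell and HARS2 rose (0.33), with adjusted p from 0.00469 for EEF1E1 to 0.0313 for FARSB, against 4.65% of genes lower and 2.59% higher. In a comparison added after the data were seen, the arm difference was lower at 22 than at 16 h for FARSB, GARS, AIMP1 and EEF1E1 and higher for MARS2 (7.56% and 3.54% of all genes). EEF1E1 read 5.76 and 5.66 CPM in Tet plus at 16 h and 2.39 and 1.87 CPM at 22 h, while Tet minus read 3.31 and 4.65 CPM and then 4.90 and 6.65 CPM. None of these counts held under every left-out library. Without the Tet plus 22 h replicate 2, 0 members fell from 16 to 22 h in Tet plus, and 1 did without the Tet plus 22 h replicate 1 or the Tet plus 16 h replicate 2. The rise of HARS2 was lost without any of the 4 libraries. The 4 lower arm differences became 1 without the Tet minus 16 h replicate 1, the Tet plus 16 h replicate 2, the Tet plus 22 h replicate 2 or the Tet minus 22 h replicate 2, and 7 without the Tet minus 22 h replicate 1. With the replicate block 10 members fell in Tet plus and 14 arm differences were lower. The shares of all genes with the block are not reported for these comparisons.

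At single late times 16, 12, 17 and 19 members were lower at 16, 18, 20 and 22 h, against 14.0%, 11.2%, 13.7% and 16.3% of all genes. With 1 library of that time left out the counts were 6 to 12, 6 to 12, 7 to 13 and 12 to 18, lowest without the Tet minus 16 h replicate 2, the Tet plus 18 h replicate 1, the Tet plus 20 h replicate 1 and the Tet plus 22 h replicate 2. RARS2 was higher at 16 h, against 12.9% of all genes. The cytosolic median went from -0.12 at 16 h to -0.53 at 22 h, and the mitochondrial one was -0.35 and -0.29 at these times. The change in either median was not tested.

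Enzymes inside and outside the list of ATF4 targets fell in like shares, and the difference between the lists was not tested. Of 13 cytosolic enzymes listed as ATF4 targets, 8 fell at 0 to 14 h (median -0.19) and 9 at 16 to 22 h (median -0.31). Of the 8 cytosolic enzymes outside that list, 5 fell in each period (medians -0.20 and -0.27), and TARSL2 rose in the later one. ATF4 itself was lower by 0.19 at 0 to 14 h (SE 0.064, adjusted p = 0.0169) and by 1.08 at 16 to 22 h (SE 0.086, adjusted p = 6.0e-11).

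Beyond the synthetases, 13 of 31 tested ATF4 targets and amino acid response genes fell and 5 rose at 0 to 14 h (15 and 3 at 16 to 22 h). The rises were no more frequent than over all genes (20.1% and 26.3%). The amino acid transporters SLC7A5 (-0.94, adjusted p = 2.3e-10) and SLC7A1 and the synthesis genes CBS (-0.39, adjusted p = 5.2e-07) and PYCR1 fell, whereas DDIT4, an inhibitor of mTORC1 signalling, rose (0.90, adjusted p = 2.2e-10), as did the lipoprotein receptor VLDLR (0.54, adjusted p = 3.3e-07). ASNS (-0.01, adjusted p = 0.957) and TRIB3 (0.01, adjusted p = 0.986), both widely used as readouts of ATF4, did not pass. Other genes of the list moved either way. DDIT3 (0.31, adjusted p = 0.00278) and SESN2 (0.50, adjusted p = 0.00461) rose and PSAT1 (-0.25, adjusted p = 0.0236) fell at 0 to 14 h. CHAC1 did not pass then (-0.05, adjusted p = 0.892) but fell at 16 to 22 h (-1.06, adjusted p = 0.0134).

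Of 15 tested genes of the eIF2 kinases, among them EIF2AK4 (GCN2), which responds to uncharged tRNA, their substrate eIF2, its exchange factor and its phosphatase, 9 fell and 2 rose at 0 to 14 h (10 and 2 at 16 to 22 h). The exchange factor subunits EIF2B3 (-0.34, adjusted p = 9.8e-07) and EIF2B5 (-0.20, adjusted p = 8.5e-05) and the substrate EIF2S1 (-0.34, adjusted p = 4.6e-05) fell, and the phosphatase subunit PPP1R15A rose (0.38, adjusted p = 1.9e-04). Of 13 genes listed for delivery and quality control of charged tRNA, 7 fell and 1 rose (4 and 2 at 16 to 22 h). The list was drawn up for the cytosol, but the compartment of each gene was not checked. It is therefore not read as purely cytosolic. The peptidyl-tRNA hydrolase gene PTRH2 was lowest (-0.54, adjusted p = 4.5e-09), and the elongation factor EEF1A1 (-0.10, adjusted p = 0.379) did not pass.

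The list for mitochondrial charging, delivery and tRNA modification had 18 of 23 tested genes lower and 0 higher at 0 to 14 h (median -0.25; 16 lower and 0 higher at 16 to 22 h, median -0.37). PUS1, which makes pseudouridine in tRNA, fell most (-0.74, SE 0.080, adjusted p = 4.0e-08), with ELAC2, which trims tRNA ends (-0.40, adjusted p = 2.7e-09), MRRF, the ribosome recycling factor (-0.27, adjusted p = 9.3e-06), and TUFM, which brings charged tRNA to the mitochondrial ribosome (-0.34, adjusted p = 2.1e-05). The amidation step that uses the product of EARS2 moved the same way, with QRSL1 (-0.32, adjusted p = 9.8e-05), GATC (-0.25, adjusted p = 7.2e-05) and PET112 (-0.16, adjusted p = 0.00523) lower at 0 to 14 h. These 3, the subunits of the amidotransferase, were named after their values were seen. Counts of all lists stand beside 21.3% lower and 20.1% higher over all genes at 0 to 14 h, and 26.8% and 26.3% at 16 to 22 h.

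The motifs divided the members as follows. CACGTG was in a window of 5 of the 33 matched members (15.2%), namely IARS, AIMP2, CARS2, EARS2 and MARS2, against 8.77% of all symbols and 7.26% of all windows in the table. All 5 fell in both periods, as did 15.6% of all genes, although the late call of CARS2 was lost under several settings. Their median at 0 to 14 h was -0.48 (-0.64 to -0.18). The 28 matched members without it, of which 17 fell, had a median of -0.18 (-0.58 to 0.06). These ranges overlapped, with EEF1E1 at -0.58 without a match and CARS2 at -0.18 with one. The difference between the 2 sets was not tested. The E-box of AIMP2 was in its second window, 75 bases before that start, and that of CARS2 began 3 bases before the start of its first window. The other window of each of these genes held no match. Counted from the start of the second EARS2 window, its E-box began 10 bases after the start. A match to TGATGNAA was in 8 of 33 (24.2%), AARS, CARS, GARS, IARS, MARS, NARS, TARS and YARS2, against 4.46% of all symbols and 3.62% of all windows. Of these, 7 were among the 10 matched ATF4-list enzymes and 0 among the 6 matched cytosolic enzymes outside the list. Members with the match had a median of -0.18 at 0 to 14 h and -0.35 at 16 to 22 h, and those without it -0.21 and -0.37. A match describes letters in a window and is neither a shown site nor a cause.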

How the data were processed

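Transcripts left after ribosomal RNA depletion were counted in 44 libraries of 22 groups (2 arms, 11 times, 2 replicates each). Per the labels' protocols, ERCC mix 1 spike-ins were added and libraries were directional. Values are the authors' deposited raw counts per gene, made with TopHat2 2.0.5 and HTSeq on hg19 per the submitters' processing notes. HTSeq's version, gene models and strand option: not given in the sources used here.

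The 92 ERCC rows were kept out of library sizes. The test was edgeR's (4.0.16, under R 4.3.3) quasi-likelihood F-test, after filterByExpr and with TMM scaling, in 1 model of 22 group means with 22 residual degrees of freedom. P-values were adjusted by Benjamini-Hochberg across all 14534 genes tested, with a threshold of 0.05. All 40 members passed the filter. Each SE was the size of the log2 fold change over the root of its F. CPM are counts per 1000000 TMM-scaled counts. The fit was also run on simulated counts that were drawn without any replicate effect. Such counts cannot show how the fit handles replicates that deviate together.

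Same-numbered replicates of both arms deviated together (0 to 14 h: lowest r 0.373 over 7 times; 16 to 22 h: lowest r 0.263 over 4 times; 10090 genes), so the number was taken to pair the arms. The pairing comes from this check and, at 0 to 14 h, from shared lane numbers in the titles. The main test left this pairing out, and only the replicate block and the block within each time used it.

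Alternatives were a replicate block, DESeq2 1.42.0 (test and size factors), no low-count filter, ERCC scaling, smaller fits and leaving out each library. Members, lists, naming rule (the 3 smallest adjusted p at 0 to 14 h per subgroup, every member that rose, the pairs, up to 4 genes of each other list by adjusted p) and tests were chosen with earlier results of these data known. Named beyond this rule, with their values known, were ATF4, PYCR1, SLC7A1, ASNS, TRIB3, DDIT3, SESN2, PSAT1, CHAC1, EEF1A1 and the amidotransferase subunits. Comparison of protein sequences was not analysed here. Promoters are RefSeq windows on GRCh38.p14. No coordinates come from the counts, and lengths are GENCODE release 29 exon unions.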

Additional observations from a re-analysis of the deposited data

Results flagged for a closer look

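For 13 members the arm difference at 16 to 22 h was lower than that at 0 to 14 h by a test of the difference itself (edgeR's quasi-likelihood test, adjusted p under 0.05). On the log2 scale the change was -0.96 for AARS (adjusted p = 9.9e-07), -0.50 for YARS, -0.46 for CARS, -0.43 for PARS2, -0.40 for HARS (adjusted p = 6.8e-05), -0.36 for AARS2, -0.36 for TARS2 (adjusted p = 4e-05), -0.34 for QARS, -0.25 for MARS, -0.24 for EARS2, -0.23 for LARS2, -0.19 for WARS and -0.18 for GARS. The arms share lane numbers in the earlier period and not in the later one, so that period and lane cannot be told apart. With 1 library left out at a time, EARS2 lost its call in 32 of 44 fits (highest adjusted p = 0.133, without the Tet minus 16 h replicate 2), and GARS in 17 (highest adjusted p = 0.0844, without the Tet plus 20 h replicate 2).

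For 5 members the arm difference at 22 h differed from that at 16 h, in a comparison chosen after the data were seen. With 4 lower and 1 higher, against 7.56% and 3.54% of all genes, the count is near the background, and the 4 became 1 without any of 4 libraries. It changed by -1.95 for EEF1E1 (adjusted p = 0.00330), by -0.97 for AIMP1 (adjusted p = 0.0345), by -0.71 for FARSB (adjusted p = 0.0309), by -0.49 for GARS (adjusted p = 0.0232) and by 0.59 for MARS2 (adjusted p = 0.0415), with 2 libraries an arm at each time. EEF1E1 was above Tet minus in both Tet plus libraries at 16 h and below it in both at 22 h.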

How the results depend on the processing

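The calls of the 40 members at 0 to 14 h were unchanged by the DESeq2 test and by leaving out the low-count filter. Called members also kept their direction there, while the sign of uncalled members was not compared. Under DESeq2's size factors, either replicate block and the 28 libraries fitted alone, 1 to 3 members changed call. Scaling to the spike-ins changed most counts. Under it 0 members were lower at 0 to 14 h (0 cytosolic, 0 mitochondrial; medians -0.13 and -0.054) and at 16 to 22 h, where 40 were higher (24 cytosolic, 16 mitochondrial) and the medians turned to 4.08 and 4.09, with the median of all genes moved from 0.02 to 4.41. Under it the later arm difference was lower for 0 and higher for 40 members, 0 were lower at every single time, 40 were higher at 16, 18, 20 and 22 h, and 0 changed either way from 16 to 22 h in Tet plus or in the arm difference between these times. Spike-ins made up as little as 0.0543% of a late Tet plus library, which limits that scaling.

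The replicate block gave 8, 14, 10, 4, 10 and 12 lower members at 0, 6, 8, 10, 12 and 14 h, and the block within each time, chosen for single times after the data were seen, gave 10, 15, 10, 4, 12 and 14, and 19 at 18 h. Under both blocks 4 members were higher at 16 h, 2 had a higher arm difference in the later period, 1 was higher at 6 than at 0 h in Tet minus, 1 was lower in Tet plus, 10 were lower at 22 than at 16 h in Tet plus, and 14 had a lower arm difference at 22 than at 16 h. Between 22 and 16 h in Tet minus 4 were higher under the block and 5 under the block within time, which also gave 2 higher arm differences at 22 h. The shares of all genes under the blocks are not reported for these comparisons. Over 16 to 22 h the genes called in all were 7713 without a block, 9100 with it and 9307 with the block within time.

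Without the low-count filter 0 members were higher at 16 to 22 h (0 cytosolic), 8 had a lower later arm difference, 1 was lower at 0 h, 4 at 6 h, 0 were higher at 16 h, 0 rose from 16 to 22 h in Tet plus and 0 had a higher arm difference at 22 h. The DESeq2 test, added later for single times, gave 11 lower members at 6 h, 5 at 14 h and 6 lower at 22 than at 16 h in Tet plus, with a mitochondrial median of -0.31 at 16 to 22 h. DESeq2's size factors gave 1 at 0 h and the same median of -0.31. Fitting each period alone gave 1 at 0 h, 4 at 6 h, 2 higher at 16 h, 5 lower and 0 higher at 22 than at 16 h in Tet plus, 8 lower arm differences at 22 h and a mitochondrial median of -0.31.

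Leaving out 1 library at a time gave 21 to 27 lower members at 0 to 14 h (12 to 17 cytosolic, 9 to 10 mitochondrial) and 23 to 28 at 16 to 22 h (15 to 17 and 8 to 12), with 0 to 1 higher (0 to 1 cytosolic). The later arm difference was lower for 7 to 14 and higher for 0 to 2. At single times 0 to 1, 0 to 3, 0 to 8, 0 to 2, 0 to 1, 0 to 1 and 1 to 3 members were lower at 0, 3, 6, 8, 10, 12 and 14 h, and 6 to 12, 6 to 12, 7 to 13 and 12 to 18 at 16, 18, 20 and 22 h, with 0 to 0 higher at 16 h. From 16 to 22 h in Tet plus 0 to 2 fell and 0 to 0 rose, and the arm difference at 22 h was lower for 1 to 7 and higher for 0 to 2. These fits leave an arm with 1 library at that time, assumed to vary like the other groups. The mitochondrial median at 16 to 22 h ran from -0.37 to -0.28. Where no cause is given above, the cause was not tested.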
